A study of Rattus norvegicus with 9 samples.

Results

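The genes described here are 29 genes of cholesterol and fatty acid synthesis and its control, taken by gene symbol from the 34408 gene entries of a rat spleen RNA sequencing study. They were 17 enzymes of sterol synthesis, 5 enzymes of fatty acid synthesis, 4 genes of the sterol-sensing SREBP system and 3 genes of sterol efflux and its sensor LXR. They were picked by gene name, with earlier results of these data known. A symbol found more than once was represented by the entry with the most counts. Spleen RNA was sequenced from wild-type rats in 3 groups of 3 libraries each: control, TAA and TAA with celecoxib. TAA (thioacetamide) damages the liver and, given repeatedly, is a standard way to make rodents cirrhotic. Both TAA groups had intraperitoneal TAA for 8 weeks at 200 mg/kg and for 8 weeks at 100 mg/kg, with a dose every 3 days. The third group also had celecoxib, an inhibitor of cyclooxygenase 2, at 20 mg/kg/day during the second 8 weeks. Each group is called below by its treatment and each library by its number. The labels name the tissue as spleen and the cell type as splenocytes, and none of strain, sex or age is given in the sources used here. Nothing in them says that each library came from its own animal, so the p-values reflect only the spread among these samples, which may be technical.

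Cells build cholesterol from acetyl-CoA through mevalonate, the isoprenoid diphosphates, squalene and lanosterol. When sterols in the endoplasmic reticulum are low, SCAP carries the precursor of SREBP2, the product of Srebf2, to the Golgi, where it is cut to release a transcription factor for the sterol enzymes, while INSIG proteins hold the complex back when sterols are high. SREBP1, the product of Srebf1, acts mainly on fatty acid synthesis. When sterols are plentiful, oxysterols activate LXR, which raises the exporters Abca1 and Abcg1. Spleen macrophages take up membranes of old red cells and so handle much cholesterol.

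Promoter sequences of the regulators and of examples of the enzymes are shown because these genes are known to share control by SREBP factors, which bind beside the factor NF-Y. Sequences come from RefSeq (GRCr8), where 22 of the 29 genes matched, with 23 entries because Srebf1 has 2 start sites. Pmvk, Fdft1, Sqle, Acaca, Fasn, Elovl6 and Abcg1 had no entry. Each sequence is the 250 bases before the start site, written 5′ to 3′ on the strand of the gene, and capitals mark the NF-Y box CCAAT or its reverse complement ATTGG. Hmgcs1 lies at chr2:53382054-53382303 on the plus strand, Idi1 at chr17:66547525-66547774 on the minus strand and Srebf2 at chr7:115543057-115543306 on the plus strand. The starts of Srebf1 lie at chr10:45529165-45529414 (start A) and chr10:45519011-45519260 (start B), both on the minus strand, and Nr1h3 lies at chr3:97623230-97623479 on the minus strand. The read counts are per gene and do not separate the Srebf1 starts.
Hmgcs1: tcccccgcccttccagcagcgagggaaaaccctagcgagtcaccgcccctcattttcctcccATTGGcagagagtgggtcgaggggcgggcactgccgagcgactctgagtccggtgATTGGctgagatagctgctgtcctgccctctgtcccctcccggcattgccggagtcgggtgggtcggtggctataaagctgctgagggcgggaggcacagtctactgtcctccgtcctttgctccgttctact
Idi1: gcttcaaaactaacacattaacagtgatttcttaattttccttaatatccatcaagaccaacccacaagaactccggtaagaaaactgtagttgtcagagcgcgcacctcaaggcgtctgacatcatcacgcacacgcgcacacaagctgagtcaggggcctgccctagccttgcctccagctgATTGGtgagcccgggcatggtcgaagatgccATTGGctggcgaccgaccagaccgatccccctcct
Srebf2: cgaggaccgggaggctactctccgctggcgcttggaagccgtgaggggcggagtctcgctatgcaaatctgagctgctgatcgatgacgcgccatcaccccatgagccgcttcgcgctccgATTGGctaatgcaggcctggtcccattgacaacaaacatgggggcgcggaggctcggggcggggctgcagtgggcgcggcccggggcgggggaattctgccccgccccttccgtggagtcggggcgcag
Srebf1 start A: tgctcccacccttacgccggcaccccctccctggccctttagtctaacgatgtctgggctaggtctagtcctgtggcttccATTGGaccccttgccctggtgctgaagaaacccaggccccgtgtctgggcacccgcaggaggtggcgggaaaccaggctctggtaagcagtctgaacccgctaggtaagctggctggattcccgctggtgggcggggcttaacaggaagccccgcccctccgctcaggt
Srebf1 start B: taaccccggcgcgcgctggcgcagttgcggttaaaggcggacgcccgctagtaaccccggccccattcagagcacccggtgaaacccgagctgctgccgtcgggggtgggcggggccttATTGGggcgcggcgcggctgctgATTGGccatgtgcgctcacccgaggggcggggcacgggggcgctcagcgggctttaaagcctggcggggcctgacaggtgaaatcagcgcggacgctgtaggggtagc
Nr1h3: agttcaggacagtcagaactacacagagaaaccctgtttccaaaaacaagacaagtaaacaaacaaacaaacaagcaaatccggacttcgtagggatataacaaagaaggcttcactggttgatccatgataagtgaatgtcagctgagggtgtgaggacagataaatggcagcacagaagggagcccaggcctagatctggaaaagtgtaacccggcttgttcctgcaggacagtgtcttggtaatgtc
Hmgcs1 holds ATTGG at positions -188 to -184 and -133 to -129 before its start, Idi1 at -66 to -62 and -35 to -31, and Srebf2 at -129 to -125. Neither CCAAT nor ATTGG occurs in the Nr1h3 sequence.

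Over windows from 250 bases before to 50 bases after the start, searched on both strands, CCAAT occurred in 12 of 14 sterol enzyme promoters (85.7%), the exceptions being Cyp51 and Dhcr7. It occurred in 5 of the 9 other entries (55.6%) and in 12549 of 33469 promoters of the whole RefSeq table (37.5%). Mvk, the kinase of mevalonate, and Nsdhl, a dehydrogenase of the steps after lanosterol, each held 5 matches. The sterol regulatory element in the form TCACNCCAC, searched on both strands, occurred in 0 of the 23 entries, so none overlapped a CCAAT box, and in 374 of 33469 promoters (1.12%). These letters describe the windows searched, and no match says only that this spelling is not there.

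Libraries held 14211789 to 19014761 counts, so 1 count was worth 0.0526 to 0.0704 CPM of its library's total. CPM are read counts rescaled so that libraries have equal totals, and those given for genes used TMM-adjusted totals. Control 1 and TAA+celecoxib 1 stood apart from the other 7 libraries on the first principal component, at -63.2 and -60.3 against -1.73 to 50.1. Their summed levels over 12 macrophage markers were also the lowest, at 3527 and 2897 CPM against 6033 to 10396 CPM. Several, not all, of the group medians and leading genes that rest on these libraries are given below with and without them. T and B cell markers were present in every library, at 357 to 907 CPM summed over 8 T cell markers and 1382 to 2467 CPM over 7 B cell markers. Hepatocyte transcripts were found in TAA 1 and control 1, with Alb at 575 and 89.0 CPM and at most 0.701 CPM elsewhere.

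Per gene length, the most abundant of the 29 genes was Nr1h3, which encodes the LXR alpha sensor, at a mean FPKM (reads scaled by gene length and library depth) of 117 over the 9 libraries, with single libraries at 62.6 to 157. Abcg1, a sterol exporter, followed at 54.1, then Acly, which makes cytosolic acetyl-CoA from citrate, at 39.7, and Srebf2 at 35.8. Single libraries were at 41.5 to 70.5 for Abcg1, 33.3 to 42.1 for Acly and 30.9 to 42.4 for Srebf2, so these ranges overlapped. The lowest Nr1h3 library also lay below the highest of Abcg1. Among the sterol enzymes, Fdps, which makes farnesyl diphosphate, was highest at 21.9. Mvd at 19.8, Hmgcs1 at 18.8, Pmvk at 18.1 and Ebp at 16.6 came next, and their ranges over libraries overlapped. The lowest sterol enzymes were Lss, which closes squalene epoxide into lanosterol, at 2.42, Tm7sf2, a sterol C14 reductase, at 1.69, and Hsd17b7, a keto-reductase, at 0.992. Srebf1 was at 14.3, Fasn, the fatty acid synthase, at 14.7 and Scd, the stearoyl-CoA desaturase, at 14.8. Elovl6, which lengthens palmitate, had 2 counts in control 3, 1 each in TAA 1 and TAA 2, and 0 in the other 6 libraries. A count of 0 allows up to 3 counts, so its level was not measurable at this depth and it was not tested.

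**Figure D1:**
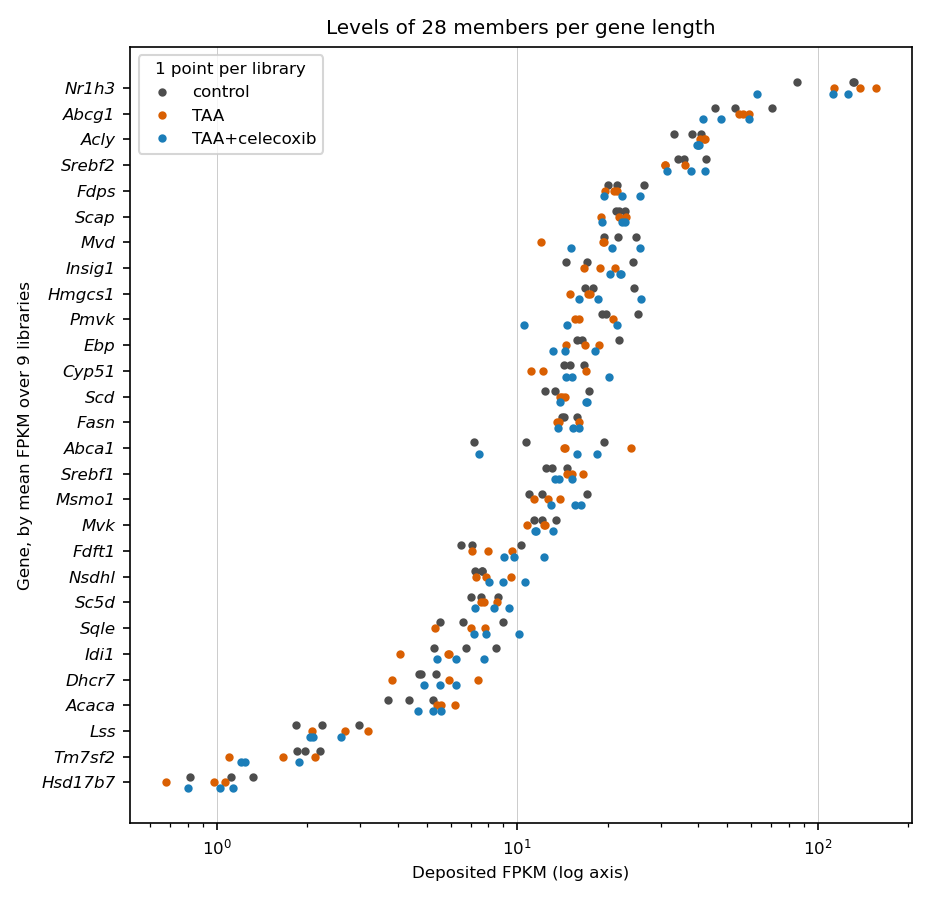
Deposited FPKM (horizontal log axis) of 28 genes in each of the 9 libraries, 1 point per library coloured by group, ordered by the mean over libraries. Nr1h3 lies highest with 1 low library at 62.6, and Lss, Tm7sf2 and Hsd17b7 lie below the other genes.

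Genes differed in how much they varied between libraries. Acly had a coefficient of variation (SD over mean) of 6.55% over the 9 libraries, Scap 7.38%, Fasn 7.54% and Mvk 7.93%. Abca1, which loads cholesterol onto lipoprotein particles, had 37.2%, with its highest library 3.25 times its lowest. Pmvk, the phosphomevalonate kinase, had 24.9%, Tm7sf2 24.6% and Nr1h3 23.9%. The sterol enzymes and the efflux genes were both extreme in the same libraries, in opposite directions. Of the 17 sterol enzymes, 7 were highest in control 1 and 7 in TAA+celecoxib 1, and for 9 of the 17 these were the 2 highest libraries. For all of Nr1h3, Abca1 and Abcg1 they were the 2 lowest. TAA 3 was the lowest library for 8 of the 17 sterol enzymes. The summed T cell markers ran with the sterol enzymes, highest in control 1 and TAA+celecoxib 1 at 907 and 828 CPM and lowest in TAA 3 at 357 CPM, with the other 6 libraries at 440.4 to 689 CPM. The summed B cell markers were highest in TAA+celecoxib 1 at 2467 CPM, then TAA+celecoxib 3 at 2070 CPM and control 1 at 1975 CPM. They were lowest in TAA+celecoxib 2 at 1382 CPM and TAA 3 at 1475 CPM. The macrophage markers ran against the sterol enzymes, with TAA 3 the highest. Endothelial markers (6 summed) did so too, at 250 CPM in control 1, 245 CPM in TAA+celecoxib 1 and 557 to 892 CPM elsewhere. The 9 adipocyte markers, mostly Fabp4, were at 87.9 and 78.8 CPM in these libraries and 162 to 340 CPM elsewhere. TAA 3 was highest for both lists. The mean log2 CPM of the sterol enzymes was 4.64 in control 1 and 4.62 in TAA+celecoxib 1, against 4.08 in TAA 3 and 4.19 to 4.43 in the other 6 libraries. That of the 3 efflux and LXR genes was 6.97 and 6.81 in control 1 and TAA+celecoxib 1, and 7.42 to 7.83 in the other 7. The part of T cell, B cell, macrophage, endothelial and adipocyte content in these levels was not tested. In bulk RNA fewer cells of a type and less RNA per cell cannot be told apart.

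**Figure D2:**
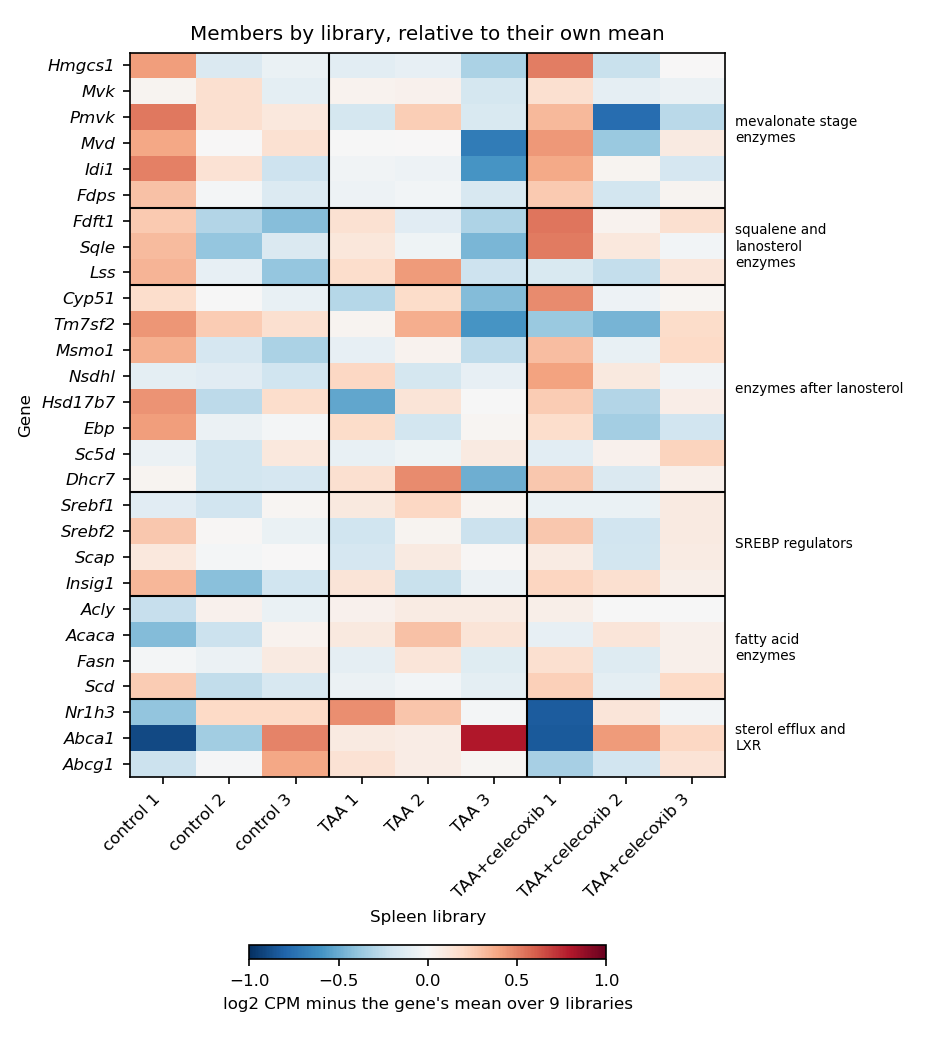
Log2 CPM of 28 genes (vertical axis, by role) in each library (horizontal axis), minus each gene's mean over the 9 libraries, where red is above and blue below that mean. The columns of control 1 and TAA+celecoxib 1 are mostly red for the sterol enzymes and blue for Nr1h3, Abca1 and Abcg1.

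**Figure D3:**
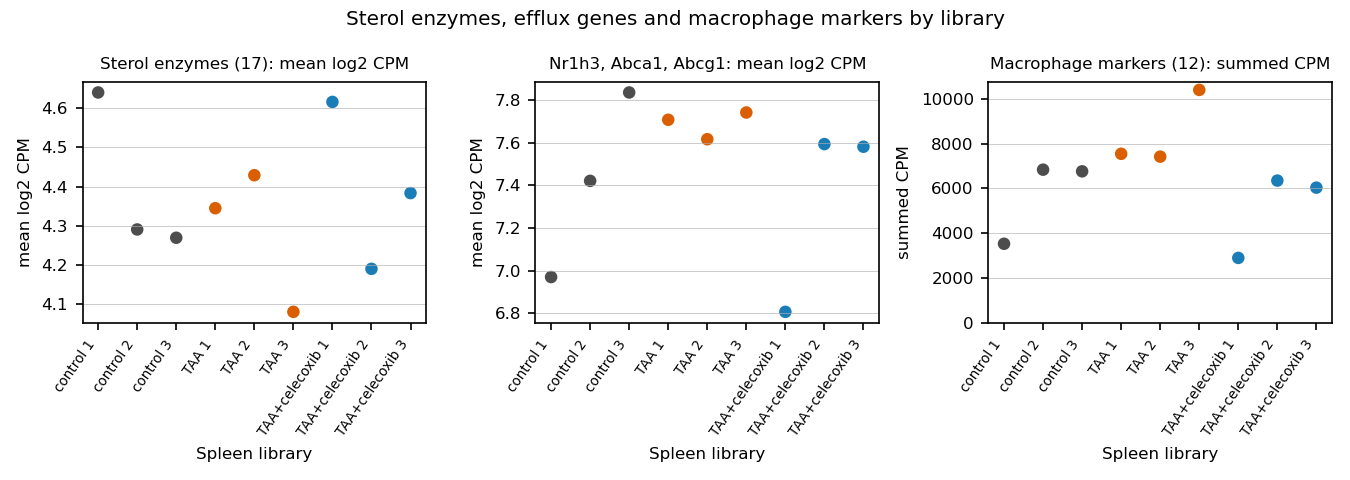
Mean log2 CPM of the 17 sterol enzymes, mean log2 CPM of Nr1h3, Abca1 and Abcg1, and summed CPM of 12 macrophage markers, by library, coloured by group (control grey, TAA orange, TAA+celecoxib blue). Control 1 and TAA+celecoxib 1 are highest for the sterol enzymes, at 4.64 and 4.62, and lowest in the other panels. The log2 axes do not start at 0.

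The first comparison asked how TAA treatment altered these genes in the spleen. No sterol or fatty acid gene passed the test in TAA against control. Of the sterol enzymes 12 of 17 had a fitted log2 fold change below 0, where 49.8% of all 15954 genes tested were below 0, and their median was -0.12 beside 0.0017 for all genes. Without control 1 the count was 9 of 17 and the median -0.0011, and without control 3 the median was -0.21. Markers of several cell types moved in the same comparison. All 8 T cell markers were below 0, with a median of -0.75 and summed levels of 603 to 907 CPM in control and 357 to 479 CPM with TAA. Of the 7 B cell markers 5 were below 0 and 2 above, with a median of -0.15. Neutrophil markers were above 0 for 8 of 8, with a median of 2.27. Their summed levels were 87.9 to 342 CPM in control and 465 to 2253 CPM with TAA. All 10 markers of dividing cells and all 9 of erythroid cells were above 0, with medians of 0.69 and 1.90, and the summed levels overlapped between the groups for both lists. The part of these cell types in the sterol enzyme values was not tested. Acaca, which encodes acetyl-CoA carboxylase 1, the committed step of fatty acid synthesis, had the smallest p of these genes and was 1.29-fold higher in TAA. By edgeR's quasi-likelihood test with Benjamini-Hochberg adjustment over all genes, 0 of the 28 genes tested passed (0% of all genes did), and the smallest adjusted p was 0.788. DESeq2 and limma-voom called 0 of the 28 too. At an unadjusted p under 0.05, 1 of the 28 was higher, beside 2.85% of all genes, and 0 were lower, beside 3.15%. The 95% intervals of 26 of the 28 lay within a 2-fold change either way, and those of 15 within 1.5-fold. The exceptions to the 2-fold bounds were Tm7sf2, down to 0.499-fold, and Abca1, up to 2.71-fold.

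In the mevalonate stage, all 6 enzymes had fitted values below 0, with a median log2 fold change of -0.27 and a range of -0.39 to -0.06. Without control 1 all 6 stayed below 0 with a median of -0.10, and Mvk alone was above 0 without control 2 or without TAA 3. Hmgcs1, the HMG-CoA synthase, was at 80.4, 54.3 and 57.4 CPM in controls 1 to 3 and at 55.8, 56.9 and 48.4 CPM in libraries TAA 1 to 3. Control 1 was the high library, and the remaining controls lay within or close to the TAA range. The fitted fold was 0.839 (95% interval 0.599 to 1.18, edgeR adjusted p = 0.806), and its log2 value of -0.25 became -0.06 without control 1. Mvd, which makes isopentenyl diphosphate, was at 43.2, 33.3 and 36.8 CPM in the controls and at 33.1, 33.3 and 20.4 CPM with TAA. Its groups did not overlap, as did those of 7.89% of all genes in that direction, but control 2 and TAA 2 agreed to the digits shown. The fold was 0.766 (0.519 to 1.13, edgeR adjusted p = 0.788), and the log2 value of -0.39 became -0.19 without TAA 3. Idi1, the isomerase of isopentenyl diphosphate, was at 24.4, 19.1 and 14.9 CPM in the controls and at 16.8, 16.6 and 11.4 CPM with TAA, with overlap and a fold of 0.769 (0.525 to 1.13). Pmvk, Fdps and Mvk had log2 fold changes of -0.29, -0.14 and -0.06.

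The enzymes of squalene and lanosterol had values on both sides of 0. Sqle, squalene epoxidase, was at 24.9, 15.2 and 18.0 CPM in the controls and 21.6, 19.3 and 14.6 CPM with TAA. Its log2 fold change was -0.07, and it was 0.15 without control 1 and 0.08 without TAA 3, so the sign depended on either library. Fdft1, squalene synthase, had 0.05 and Lss 0.16, and without control 1 these were 0.28 and 0.38. Of the 8 enzymes after lanosterol, 3 had values above 0 and 5 below, with a median of -0.10, and without control 1 it was 5 above and 3 below, with a median of 0.04. Cyp51, the lanosterol demethylase, was at 56.9, 50.3 and 48.0 CPM in the controls and at 41.3, 57.1 and 37.3 CPM with TAA, with TAA 2 above every control. Dhcr7, the last reductase of cholesterol synthesis, ranged from 10.5 to 20.5 CPM within the TAA group alone, beside 13.0 to 15.1 CPM in the controls. Sc5d, the lathosterol desaturase, was steadier, at 38.2 ± 3.84 CPM (SD, n = 3) in control and 39.1 ± 2.34 CPM with TAA. Msmo1, another enzyme after lanosterol, was at 32.2, 22.5 and 20.2 CPM in the controls and 23.7, 25.8 and 21.1 CPM with TAA. Its log2 fold change of -0.08 became 0.14 without control 1.

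The 2 SREBP genes differed in direction. Srebf1 was at 59.0, 55.9 and 64.7 CPM in the controls and at 68.3, 73.9 and 65.2 CPM with TAA. The groups did not overlap, which held for 6.94% of all genes in that direction, with TAA 3 just above control 3. The fold was 1.15 (0.978 to 1.36, edgeR adjusted p = 0.788). Srebf2 was at 217, 182 and 172 CPM in the controls and 157, 183 and 155 CPM with TAA, with overlap and a fold of 0.868 (0.684 to 1.10, edgeR adjusted p = 0.794). Its log2 value of -0.20 became -0.10 without control 1. Scap, the escort of the SREBP precursors, was at 94.7 ± 4.27 and 91.6 ± 8.38 CPM. Insig1, the retention protein and itself an SREBP target, was at 45.6 ± 12.8 and 46.1 ± 5.57 CPM, where control 1 was at 60.0 CPM.

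Within the fatty acid branch, Acaca was at 25.8, 30.0 and 35.5 CPM in the controls and at 37.2, 42.5 and 38.0 CPM with TAA. Every TAA library lay above every control, and the lowest control was again control 1. Groups were apart in this direction for 2 of the 28 genes tested, beside 6.94% of all genes. The fold was 1.29 (1.03 to 1.61, edgeR adjusted p = 0.788), and the log2 value of 0.37 became 0.25 without both libraries that stood apart. Acly was at 147, 178 and 165 CPM in the controls and 178, 183 and 183 CPM with TAA, a fold of 1.11 (0.944 to 1.30). Fasn was at 136 ± 7.43 CPM in control and 133 ± 12.5 CPM with TAA (fold 0.979, 0.815 to 1.18), and Scd at 64.9 ± 12.6 and 63.7 ± 1.56 CPM. Acaca and Acly thus had fitted values above 0 and Fasn and Scd slightly below, with a median of 0.06 over the 4, and 0.11 without control 1. Adipocytes, which lie next to the spleen, also express these enzymes. Of their 9 listed markers, Adipoq, Lep, Plin1 and Plin4 were at most 0.261, 0.142, 0.274 and 0.783 CPM in any library. Lipe was at 6.82 to 12.7 CPM, Cidec at 1.47 to 3.42 CPM, Cidea at 0.760 to 3.79 CPM and Pnpla2 at 0.564 to 6.71 CPM. The summed level of the 9 adipocyte markers was 87.9 to 310.2 CPM in control and 162 to 340 CPM with TAA, most of it Fabp4, which macrophages and endothelium also express. The part of adipocytes in these values was not tested.

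The LXR and efflux genes all had fitted values above 0, that of Abcg1 at 0.0052. Nr1h3 was at 143, 215 and 216 CPM in the controls and 259, 228 and 186 CPM with TAA, a fold of 1.17 (0.774 to 1.77). Abca1 was at 76.0, 112 and 200.3 CPM in the controls and 151, 149 and 247 CPM with TAA, a fold of 1.41 (0.735 to 2.71, edgeR adjusted p = 0.803). The groups overlapped for both genes, and control 1 was the lowest library. Abcg1 averaged 221 ± 47.8 CPM in control and 222 ± 9.35 CPM with TAA. Its log2 value fell below 0 without control 1 (-0.12), control 2 (-0.04) or TAA 1 (-0.03), and without both libraries that stood apart (-0.13). The median log2 fold change of the 3 genes was 0.23, and 0.06 without control 1. For Abca1 alone the value of 0.50 became 0.21 without both libraries that stood apart and 0.96 without control 3. Macrophage markers moved in the same direction as Nr1h3 and Abca1, with 11 of 12 above 0. Their summed levels were 3527 to 6835 CPM in control and 7416 to 10396 CPM with TAA. Of the 6 endothelial markers 4 were above 0 and 2 below. The part of both cell types in these values was not tested.

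**Figure D4:**
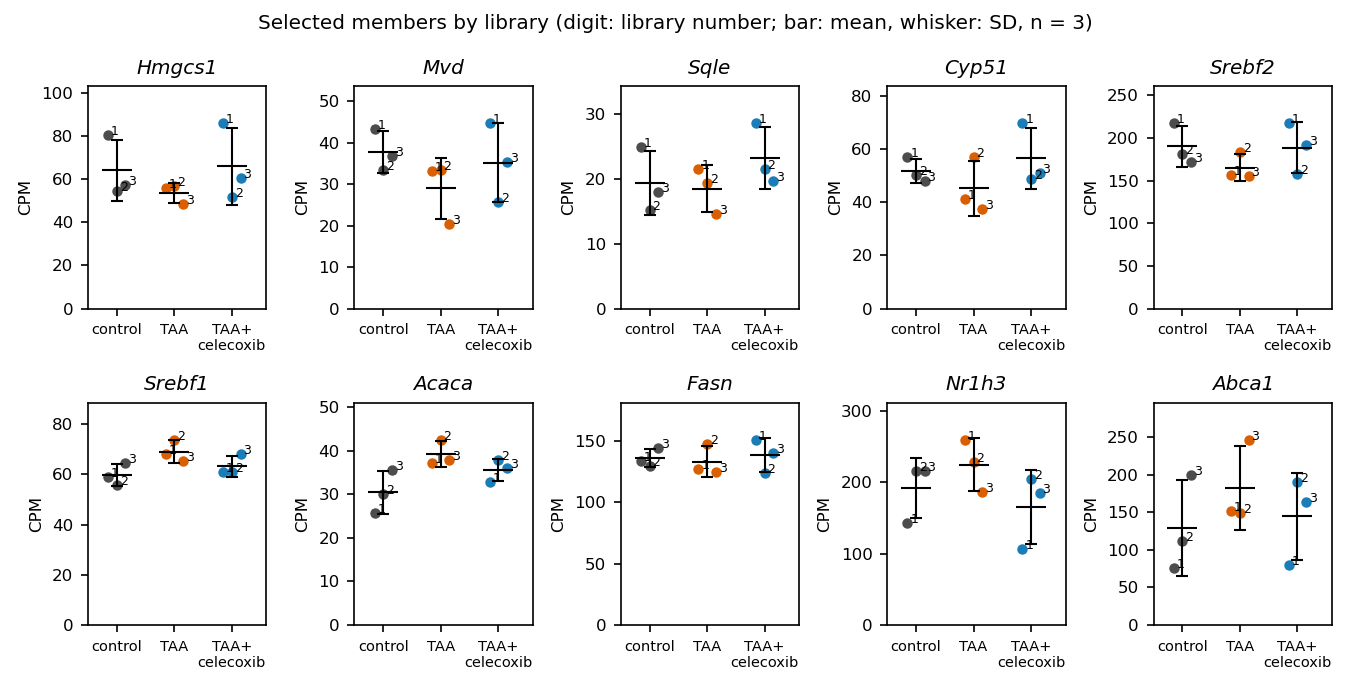
CPM (vertical axis from 0) of 10 genes in the control, TAA and TAA+celecoxib groups, where points are libraries with their number, the bar is the mean and whiskers are the SD of 3 libraries. Every TAA library lies above every control for Srebf1 and Acaca, as for 6.94% of all genes tested. Library 1 of the control and TAA+celecoxib groups is high for Hmgcs1, Sqle and Srebf2 and low for Nr1h3 and Abca1.

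The second comparison asked what celecoxib added to TAA. It uses the same 3 TAA libraries as the first, so a low or high TAA value moves both comparisons in opposite directions. Again no gene passed. Of the 17 sterol enzymes 12 had fitted values above 0, and 5 below 0, where 51.2% of all genes lay above and 48.8% below, with a median of 0.13 beside 0.0071 for all genes. Without TAA+celecoxib 1 the count was 11 of 17 and the median 0.042, and without TAA+celecoxib 2 the median was 0.23. By edgeR, 0 of 28 genes passed (0% of all genes), with a smallest adjusted p of 0.890, and DESeq2 and limma-voom also called 0. At an unadjusted p under 0.05 there were 0 of 28 in either direction, beside 2.63% of all genes higher and 2.46% lower. No gene had groups free of overlap, beside 5.87% of all genes higher and 5.03% lower. The intervals of 26 of 28 genes lay within 2-fold either way, the exceptions being Abca1, down to 0.413-fold, and Nr1h3, down to 0.485-fold.

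The largest positive values were those of Fdft1, Sqle and Cyp51. Fdft1 was at 30.8, 25.5 and 22.4 CPM with TAA and at 40.0, 28.4 and 30.9 CPM in TAA+celecoxib, a fold of 1.26 (0.893 to 1.79, edgeR adjusted p = 0.890). Cyp51 was at 69.8, 48.5 and 51.1 CPM in TAA+celecoxib, a fold of 1.25 over TAA (0.919 to 1.70). For Sqle the 3 TAA+celecoxib libraries were at 28.6, 21.5 and 19.6 CPM, a fold of 1.26 (0.863 to 1.83). In each of these genes TAA+celecoxib 1 was the highest of all 9 libraries. Without it their log2 values of 0.34, 0.33 and 0.32 for Fdft1, Sqle and Cyp51 became 0.18, 0.15 and 0.14. Hmgcs1 was at 86.0, 51.6 and 60.3 CPM in TAA+celecoxib, a fold of 1.23 (0.876 to 1.72), and its log2 value of 0.30 became 0.06 without that library. Mvd, at 44.7, 25.6 and 35.2 CPM, had 0.28, and 0.08 without TAA+celecoxib 1. Idi1, at 22.5, 17.5 and 15.3 CPM, had 0.30. Pmvk, at 24.2, 11.4 and 16.1 CPM, stood against the other mevalonate enzymes with -0.16, and TAA+celecoxib 2 was its lowest library. It had 0.07 without TAA+celecoxib 2, on the side of the others, and -0.48 without TAA+celecoxib 1. The other sterol enzymes below 0 were Lss (-0.23), Tm7sf2 (-0.17), Ebp (-0.12) and Dhcr7 (-0.03). Without TAA 2 Tm7sf2 and Dhcr7 had 0.07 and 0.20. The median of the 6 mevalonate enzymes was 0.20, and 0.03 without TAA+celecoxib 1. That of the 8 enzymes after lanosterol was 0.10, and 0.02 without TAA+celecoxib 1. All 8 T cell markers were above 0 in this comparison, with a median of 0.59. Of the 7 B cell markers 6 were above 0 and 1 below, with a median of 0.30. The part of both cell types in these values was not tested.

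Among the regulators, Srebf2 was at 217, 157 and 191 CPM in TAA+celecoxib, a fold of 1.14 over TAA (0.900 to 1.45), and Insig1 at 55.3, 53.1 and 49.6 CPM, a fold of 1.14 (0.846 to 1.54). Srebf1 was at 61.0, 60.9 and 68.0 CPM, a fold of 0.915 (0.775 to 1.08). All groups overlapped. The 4 fatty acid enzymes had values of -0.14 (Acaca), -0.05 (Acly), 0.06 (Fasn) and 0.18 (Scd), with a median of 0.0040, and of -0.04 without TAA+celecoxib 1. Acaca was at 32.8, 37.8 and 35.9 CPM in TAA+celecoxib, between the other group means, and Fasn at 151, 124 and 141 CPM. Their intervals were 0.725 to 1.13-fold and 0.866 to 1.25-fold, so changes beyond these sizes lay outside the intervals for both genes.

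Nr1h3, Abca1 and Abcg1 all had values below 0, with a median log2 fold change of -0.33. Nr1h3 was at 106, 205 and 184 CPM in TAA+celecoxib, a fold of 0.735 (0.485 to 1.11, edgeR adjusted p = 0.890). Abca1 was at 79.4, 190.3 and 164 CPM, a fold of 0.793 (0.413 to 1.52), and Abcg1 at 167, 184 and 231 CPM, a fold of 0.873 (0.662 to 1.15). TAA+celecoxib 1 was the lowest library of that group for all 3. Without it the median was -0.097, and without TAA+celecoxib 2 it was -0.58. Without TAA+celecoxib 1 the log2 value of Nr1h3 went from -0.44 to -0.20 and that of Abca1 from -0.33 to -0.04. All 12 macrophage markers were below 0 in this comparison, with summed levels of 2897 to 6348 CPM in TAA+celecoxib. Of the 6 endothelial markers 5 were below 0 and 1 above. The part of both cell types in these values was not tested.

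**Figure D5:**
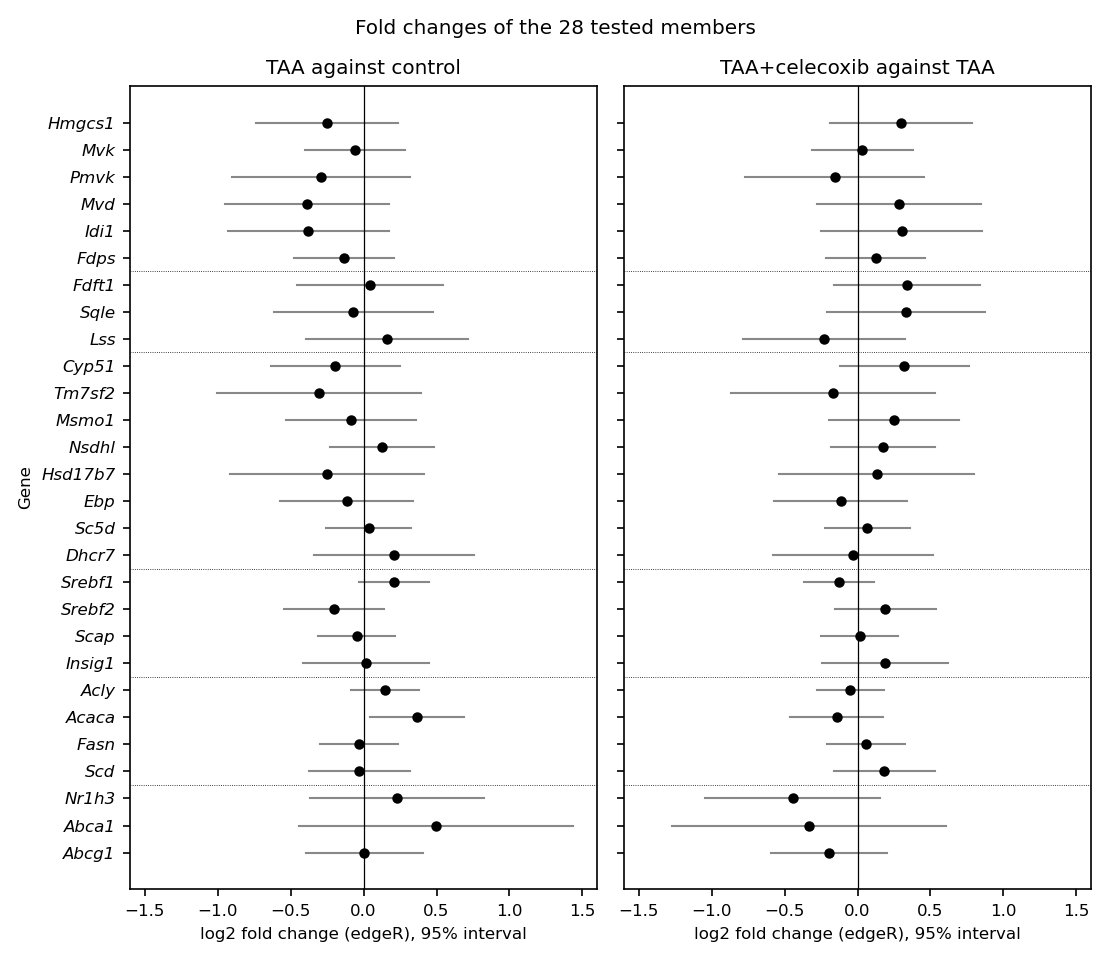
Log2 fold changes by edgeR (points) with 95% intervals (lines) of 28 genes in TAA against control (left) and TAA+celecoxib against TAA (right), by role from the mevalonate stage at the top to efflux at the bottom. The panels share the TAA libraries. Acaca in TAA against control is the 1 interval that leaves out 0, and it did not pass after adjustment.

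The third comparison, TAA+celecoxib against control, asked how far spleens with both agents were from untreated ones. By edgeR, 0 of 28 genes passed (0% of all genes), with a smallest adjusted p of 0.912, and DESeq2 and limma-voom called 0. At an unadjusted p under 0.05 there were 0 of 28, beside 2.96% of all genes higher and 2.07% lower. Sterol enzymes lay on both sides of 0, 8 above and 9 below, where 50.2% of all genes lay above, with a median of -0.01. Without control 1 the median was 0.12, with 13 of 17 above 0, and without TAA+celecoxib 1 it was -0.11, with 6 above 0. Nsdhl was at 23.2, 22.9 and 21.6 CPM in the controls and at 32.7, 26.6 and 24.2 CPM in TAA+celecoxib. Its groups did not overlap, as in 5.27% of all genes in that direction (4.42% in the other, with 0 of these 28), with a fold of 1.23 (0.963 to 1.58, edgeR adjusted p = 0.912). All 4 fatty acid enzymes tested had values above 0, from 0.03 for Fasn to 0.22 for Acaca, with a median of 0.13. Without both libraries that stood apart 2 of the 4 were above 0 and the median was 0.08. Tm7sf2 had the lowest value, -0.47 (4.61 ± 0.462 CPM in control and 3.31 ± 0.849 CPM in TAA+celecoxib), and Pmvk, at 23.5 ± 3.93 and 17.2 ± 6.49 CPM, had -0.45. Pmvk had -0.77 without TAA+celecoxib 1 and -0.22 without TAA+celecoxib 2. Fdft1 had the highest value, 0.38, which was 0.22 without TAA+celecoxib 1 and 0.62 without control 1. The interval of Abca1 reached 2.14-fold, and those of 25 of the 28 genes lay within 2-fold, Tm7sf2 and Pmvk being the other exceptions.

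Because Srebf2 and Srebf1 differed in direction, their FPKM ratio was computed after these values were seen, as the 1 ratio examined. It was 3.26, 2.87 and 2.35 in the controls, 2.03, 2.19 and 2.11 in TAA, and 3.15, 2.29 and 2.49 in TAA+celecoxib. Each TAA library was below each library of the other groups. The means were 2.83 ± 0.455, 2.11 ± 0.0800 and 2.64 ± 0.454 (SD, n = 3). Exact 2-sided permutation tests gave p = 0.1 for TAA against control and for TAA+celecoxib against TAA, the smallest p that 3 against 3 libraries allow, and p = 0.7 for TAA+celecoxib against control. Both tests at 0.1 use the same TAA libraries, and the ratio was chosen for what it showed, so these p-values give no support for a difference. How often ratios of other gene pairs separate in this way was not computed.

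Other genes of the pathways were taken from 2 lists. Of 16 further sterol genes 15 were found and tested, and of 14 further fatty acid genes 13 were found and 12 tested. None passed in any comparison by edgeR, DESeq2 or limma-voom. In TAA against control 6 of the 15 sterol genes were above 0 and 9 below, with a median of -0.02, and 8 of the 12 fatty acid genes were above 0, with a median of 0.14. Fads1, the delta-5 desaturase of polyunsaturated fatty acids, was at 107, 125 and 135 CPM in the controls and at 166, 164 and 192 CPM with TAA. The groups did not overlap, which held for 1 of the 12 fatty acid genes and 6.94% of all genes in that direction, with a fold of 1.42 (1.11 to 1.82, edgeR adjusted p = 0.788). Soat1, which esterifies cholesterol for storage, was at 47.6 ± 16.9 CPM in control and 95.3 ± 52.9 CPM with TAA. Dgat2, which makes triglyceride, was at 18.2 ± 0.984 and 34.1 ± 21.3 CPM. Both means rested on TAA 3, at 155 and 58.0 CPM, the library with the most macrophage and neutrophil marker RNA (10396 and 2253 CPM), whose part in these values was not tested. Npc2, which hands cholesterol out of lysosomes, was at 333, 397 and 377 CPM in the controls, 440.3, 418 and 461 CPM with TAA, and 270, 319 and 340.3 CPM in TAA+celecoxib.

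For Npc2 every TAA library lay above every library of the other groups, and both comparisons with TAA use the same 3 TAA libraries. Taken singly, groups were apart in these directions for 6.94% of all genes in TAA against control and for 5.03% in TAA+celecoxib against TAA. The share of all genes apart in both was not computed. Of the 15 further sterol genes, 1 was apart and higher in the first of these comparisons. In the second 2 were lower and 1 was higher, beside 5.03% and 5.87% of all genes. The macrophage markers ran in the same directions as Npc2, 11 of 12 above 0 and then 12 of 12 below, and their part in these values was not tested. Its fold was 1.19 in TAA against control (0.977 to 1.45, edgeR adjusted p = 0.788) and 0.704 in TAA+celecoxib against TAA (0.577 to 0.859, edgeR adjusted p = 0.890). In that second comparison 9 of 15 sterol genes were above 0, with a median of 0.06, and 6 of 12 fatty acid genes, with a median of -0.05. Acat2, the cytosolic thiolase that feeds the mevalonate stage, was at 9.12 ± 1.63 CPM with TAA and 6.96 ± 0.646 CPM in TAA+celecoxib, without overlap, as in 5.03% of all genes in that direction, and Dgat2 had a log2 value of -0.82. Mbtps2, the protease that frees SREBP in the Golgi, was at 24.4 ± 5.40 and 29.7 ± 2.33 CPM. In TAA+celecoxib against control 7 of 15 sterol and 9 of 12 fatty acid genes were above 0, with medians of -0.02 and 0.10. The smallest p-values there were those of Elovl1, an elongase of long chains (log2 0.32), Npc2 (-0.25), Nr1h2, the LXR beta gene (-0.18), and Acacb, the mitochondrial acetyl-CoA carboxylase (-0.45). Each had an edgeR adjusted p of 0.911 to 0.912.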

How the data were processed

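RNA sequencing of 9 rat spleen samples was analysed, 3 in each of 3 groups taken from the treatment labels. The authors deposited a table of unnormalized whole-number read counts for each gene and library. Beside the counts the authors deposited FPKM values, used here to compare levels between genes and in the Srebf2 to Srebf1 ratio. Each equals the count over the gene length and a library constant of 0.955 to 1.05 times the count total. Per the submitters' processing notes, the tools include HISAT2 2.0.5 and the genome build is mRatBN7.2. No counting tool, annotation or strand setting is given in the sources used here, so overlapping and antisense genes could share reads. Coordinates in the files could not be placed on that build and are not printed. Promoters come from RefSeq (GRCr8), matched by symbol.

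The members, lists and tests were chosen with earlier results of these data known. A symbol found more than once was represented by the entry with the most counts. One edgeR 4.0.16 quasi-likelihood fit (R 4.3.3) of all 9 libraries by group, scaled by TMM and filtered with filterByExpr at its defaults (minimum count 10, minimum total 15), tested 15954 genes, 28 of the 29 members among them. Tests were 2-sided, and p-values were Benjamini-Hochberg adjusted over all genes with a threshold of 0.05. Values are CPM, means with SD over 3 libraries, and folds with 95% intervals. Library means of log2 CPM used a prior count of 2. The common biological coefficient of variation was 0.311. Pairs of libraries differed by more than counting error, with a chi-square per degree of freedom of 17.0 to 133, so none was a copy. Whether the replicate numbers in the titles pair the samples was checked by correlating the deviations of same-numbered samples from their group means, with pairing taken where all 3 pairs were over 0.1. This held for control with TAA+celecoxib (0.47, 0.18 and 0.34), from the data alone, and not for the other comparisons. All members were named, and from the other pathway lists the 4 genes with the smallest p in each comparison. DESeq2 1.42.0, limma-voom (limma 3.58.1), other scalings and filters, log2 FPKM with pseudocounts of 0.1 and 1, each library left out and a replicate block were alternatives, and the block on 2 groups at a time was added after the data were seen.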

Additional observations from a re-analysis of the deposited data

How the results depend on the processing

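Across 20 alternative settings, no member was called in any of the 3 comparisons, and the smallest adjusted p of a member was 0.395 in TAA against control, 0.610 in TAA+celecoxib against TAA and 0.497 in TAA+celecoxib against control. Over all genes edgeR called 0 in each, where limma-voom called 0 and DESeq2 called 58, 25 and 27 in that order. At an unadjusted p under 0.05 edgeR had 455 genes higher and 502 lower, 419 and 393, and 472 and 331. With 2 groups only in the fit, edgeR called 1 in TAA+celecoxib against control. Leaving out 1 library at a time gave 0 to 1, 0 to 3 and 0 to 2 calls: 1 without TAA+celecoxib 2, 3 without TAA 1, and 2 without TAA 1. The sterol enzyme medians ranged from -0.21 to -0.0011, 0.042 to 0.23 and -0.11 to 0.12 in the 3 comparisons, and those of the fatty acid enzymes from 0.05 to 0.11, -0.04 to 0.05 and 0.07 to 0.14, with every extreme but 0.05 in TAA against control (library totals only) from a fit that left out 1 library. Of 1680 member values, 25 moved by more than 1 standard error. Signs changed for 29, 20 and 32 of 560 values in the 3 comparisons, among them none that was over 1 standard error.

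The rule for pairing by replicate number was met in TAA+celecoxib against control, where 6 of 6 samples correlated best with their own number. The labels state no pairing. Number 1 of both groups was a library that stood apart, so the rule cannot tell pairing from that likeness. It was not met in TAA against control, with pairs at 0.24, -0.02 and 0.19 and 4 of 6 samples. Nor was it met in TAA+celecoxib against TAA, with 0.12, -0.21 and 0.03 and 1 of 6. With a replicate block edgeR called 0 genes in each comparison and changed no call, and the sterol enzyme medians were -0.11, 0.11 and -0.0092. With the block on the 2 groups compared alone, added after the data were seen, it again called 0 genes in each, with medians of -0.11, 0.14 and -0.0100. Tm7sf2 and Hsd17b7, at 38 to 86 counts a library, were limited by depth more than the other members, and Elovl6 could not be measured.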

Other observations

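Thrsp, a lipogenic gene of liver and fat on the fatty acid list, was too low to test. It had 19 counts in TAA 1 and 10 in TAA 2 but at most 2 in each of the other 7 libraries. TAA 1 was also the library with the most hepatocyte marker RNA, at 866 CPM over 7 markers, and TAA 2 the one with the most pancreatic acinar marker RNA, at 76.0 CPM over 6 markers. The adipocyte markers Adipoq and Plin1 both had 0.0710 CPM in TAA 1, while TAA 2 had 0.0685 CPM of Adipoq and 0.274 CPM of Plin1. The part of neighbouring tissue in these counts was not tested.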
